A study of Mus musculus with 6 samples.

Results

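Cytosolic ribosomal proteins are the protein subunits of the ribosome that translates messages in the cytoplasm. They were compared between kidneys of metformin-treated and saline-treated mice. Genes were taken by symbol. A transcript cluster, the unit for which the array gives a value, belonged to the group when its only annotated symbol began with Rpl or Rps followed by a digit, or was Rplp0, Rplp1 or Rplp2. Pseudogene symbols with -ps and the S6 kinase genes were left out. This took 50 clusters with 44 symbols, out of 30142 symbols that have a cluster of their own on the array. For 5 symbols with several clusters, the cluster with the highest mean was used. All 6 mice were female and carried the Pkd1 miR transgene, a model of polycystic kidney disease in which a microRNA is directed against Pkd1. The sources used here do not name the promoter that drives the transgene. The metformin group had 3 mice, injected into the peritoneum with metformin, a biguanide used against diabetes, at 150 mg per kg per day. The saline group had 3 mice of the same transgenic strain. Injections ran over postnatal days 35 to 63, and snap-frozen kidneys taken on day 63 gave the total RNA, 1 array per mouse.

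The large subunit of the ribosome joins amino acids and passes the new chain through an exit tunnel, and the small subunit reads the message. Their proteins are made in matched amounts, and most of their messages carry a terminal oligopyrimidine (TOP) tract, a run of C and T bases at the very 5′ end through which mTOR and the RNA-binding protein LARP1 control translation. That control acts on translation and message stability, and an array measures only the message. In most cells, kidney tubule cells included, these are among the most abundant messages.

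The group is a part of the ribosome, not the whole. RefSeq lists 88 protein-coding mouse genes whose symbol fits the rule. Of these 41 were members, 40 occurred only in clusters that carry several symbols and 7 in no listed cluster. The other 3 members, Rps3a2, Rps3a3 and Rpl6l, are pseudogenes in RefSeq, and they can share probes with Rps3a1 and Rpl6. Rps6, Rpl5, Rplp1 and Rplp2 were among the genes not analysed here. A filter on low values, which left out the third of clusters with the lowest mean (at or under 4.03), passed 42 of the 44 members. For Rpl12, Rpl27, Rpl31, Rpl35, Rpl41 and Rpl7a the cluster used lies on another chromosome than the gene. In 53 clusters with several symbols at least 1 was a ribosomal protein symbol. Of those 53, 23 were higher and 30 lower in metformin kidneys by the mean, with a median change of -0.05 and a range of -0.50 to 0.65, and no gene is named from them.

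A stretch near the listed start of the message is shown for 7 members. A pyrimidine run at the very 5′ end is the feature through which these genes are jointly controlled. Where a run was found, the 30 bases lie around the run and need not hold the listed start. Each line gives 30 bases on the gene's strand, 5′ to 3′, from RefSeq on GRCm38.p6, and capitals mark the longest run of at least 8 C or T bases that begins with C within 50 bases of the listed start. Where no such run was found, the 30 bases around the listed start are given in lower case. Rps4x and Rpl7l1 are the members that passed the test, Rpl37a and Rpl11 have the next smallest adjusted p, and Rps24, Rps26 and Rpl4 were chosen to show members with changes in either direction that were not called.
Rps4x, chrX:102189377-102189406, minus strand: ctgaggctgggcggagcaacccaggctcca
Rpl7l1, chr17:46782642-46782671, minus strand: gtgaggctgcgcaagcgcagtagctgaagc
Rpl37a, chr1:72711275-72711304, plus strand: gcattgcgtCCCTTCCTCTTCggacttggg
Rpl11, chr4:136053357-136053386, minus strand: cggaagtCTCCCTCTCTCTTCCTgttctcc
Rps24, chr14:24490698-24490727, plus strand: ttggtcggcagtgagcggtCCTCTTTTCCT
Rps26, chr10:128626484-128626513, minus strand: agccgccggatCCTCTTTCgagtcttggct
Rpl4, chr9:64173406-64173435, plus strand: agcgtggCCTTCTCCTCTCCCCgtcatggt

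The run was 16 bases long in Rpl11 and 15 in Rpl4, and 8 in Rps26. With the listed start as base 1, it began at base 25 in Rpl37a and 15 in Rpl11. It began at base 40 in Rps24, 5 in Rps26 and 27 in Rpl4, so each of these runs begins after the listed start. The Rps24 run reaches the edge of the bases searched and may be longer. Only the sense strand was searched. A gene with several listed starts was counted as holding a run when any of them had one. Rps24 has 2 listed starts, and a start with a run was the one shown. Of the 36 members with a listed start, 29 held such a run (80.6%), against 32.7% of 17491 protein-coding genes and 31.9% of 69 mitochondrial ribosomal protein genes. Of 9 other genes known for TOP messages 4 held one (44.4%). A run in this window is a description of its letters and not a mapped TOP tract, because RefSeq starts need not be the base where transcription begins. The 7 members without a run were Rps4x, Rpl7l1, Rpl10l, Rplp0, Rps19bp1, Rps28 and Rps3a1, so both members that passed the test were among them. Among members tested, the 27 with a run had a median change of 0.07 and 18 were above 0. The 7 without a run had a median change of 0.06 and 4 were above 0.

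Medians over all clusters lay between 4.73 and 4.86 on the metformin arrays and between 4.67 and 4.74 on the saline arrays, in log2 units. Upper quartiles did not overlap, at 7.21 to 7.34 on the metformin arrays and 7.01 to 7.12 on the saline arrays. Changes after centring or quantile normalization of the arrays are therefore also given for some genes and lists. The direction turned for 9 of the 42 members tested after centring and for 14 after quantile normalization, and not every turn is marked below. Rpl12, Rpl31, Rpl39, Rps9, Rps10, Rps14, Rps27l and Rps23rg1 turned under both. Rpl22l1, Rpl35, Rps18, Rps19, Rps28 and Rps3a1 turned only under quantile normalization among these rescalings, and Rplp0 only under centring. Values reached 19.93, and all changes are on the scale of the deposited values. Of 10 kidney tubule and podocyte markers 9 passed the filter on low values. Umod, the thick ascending limb protein uromodulin, had 18.69 to 18.93 on metformin arrays and 18.91 to 19.10 on saline arrays, and the podocyte gene Nphs1 had 6.35 to 6.50 on metformin arrays and 6.41 to 6.65 on saline arrays. Pkd1, which the transgene targets, had values of 7.57, 7.58 and 7.34 in metformin kidneys and 6.70, 7.16 and 6.67 in saline kidneys. The metformin kidneys were higher in Pkd1 by 0.65 ± 0.15 (SE, n = 3 each, limma, adjusted p = 0.0317). This call was lost without metformin replicate 1 or 2 or saline replicate 1 or 3, and when arrays were centred on their medians.

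Between metformin and saline kidneys, the change in array values was bounded within 1.5-fold by its 95% interval for 34 of the 42 members tested. This covers the members only, and a member that did not pass the test is not thereby shown to be equal in both groups. Of 42 members tested, 2 changed at an adjusted p under 0.05 with limma: Rps4x, a small subunit protein encoded on the X chromosome, rose 1.80-fold, and Rpl7l1, a paralogue of the large subunit protein Rpl7, fell by 0.65 on the log2 scale. Over all 22086 genes tested the share called was 15.8%, with 6.71% higher and 9.08% lower. The share of members called was 4.76%. The median change of the members, metformin minus saline, was 0.07 log2 units, against 0.02 over all genes. In size without sign, the members' median change was 0.13 and that of all genes 0.19. Changes of more than 0.5 were found in 4 members (9.52%) and in 16.8% of all genes. Since the RNA came from whole kidney, fewer cells of a type and less RNA per cell cannot be told apart.

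The standard errors were small enough to bound the change of most members on the scale of the deposited values. The standard error of a member's change ran from 0.09 to 0.21. For 34 of 42 members (81%) the 95% interval of the change lay wholly within 1.5-fold in either direction, against 61% of all genes. The 8 members outside that bound were Rps4x, Rpl37a, Rpl8, Rps26, Rpl7l1, Rps19bp1, Rpl10l and Rpl32l. After quantile normalization of the deposited values 31 members lay within it, and after centring on the array medians 33. The intervals rest on 3 mice a group, and the number of arrays limits them. They bound the change in array values, which can differ from the change in the message. Some member clusters were dim, with means of 6.62 for Rps28, 6.93 for Rps18 and 6.93 for Rps14 in metformin kidneys. These lie below the arrays' upper quartiles, and whether dim clusters compress a change was not tested.

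**Figure D1:**
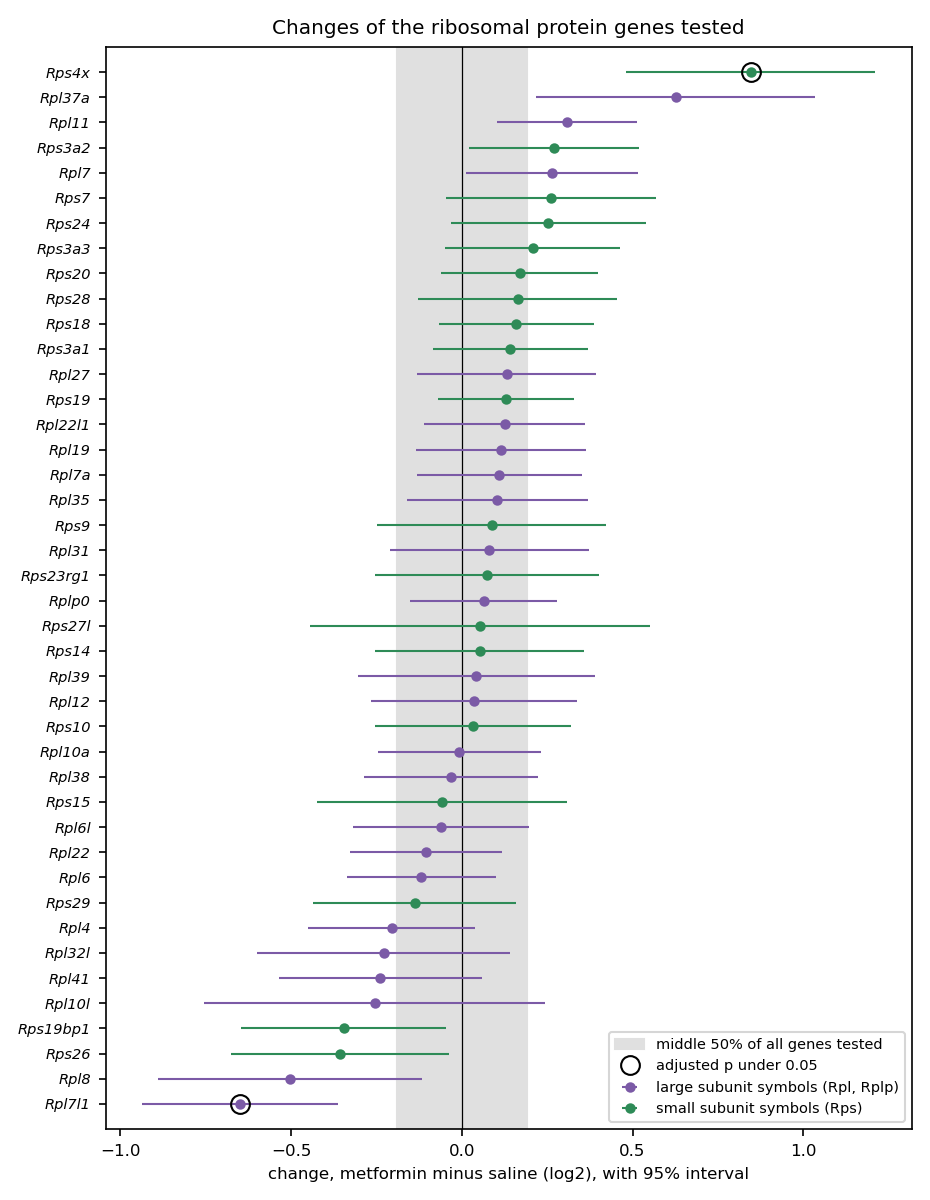
Change of each of the 42 ribosomal protein genes tested, metformin minus saline in log2 units, from the highest at the top to the lowest. Points are limma estimates and lines their 95% intervals, purple for large subunit symbols and green for small subunit symbols, the grey band is the middle 50% of changes over all genes tested, and the black rings mark Rps4x at 0.85 and Rpl7l1 at -0.65.

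Rps4x encodes a core protein of the small subunit. Its values were 10.94, 11.18 and 10.86 in metformin kidneys, against 9.91, 10.44 and 10.10 in saline kidneys. Every metformin array was above every saline array, and saline replicate 2 was the highest of its group. The change was 0.85 ± 0.16 (SE, n = 3 each, limma, adjusted p = 0.0164). The call was lost without metformin replicate 2 (adjusted p = 0.0565, change 0.75) and without saline replicate 1 (adjusted p = 0.0608, change 0.73), and it held in the other 14 settings run.

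Rpl7l1 was the other member called. It had 9.32, 9.69 and 9.35 in metformin kidneys and 10.19, 10.10 and 10.03 in saline kidneys. The groups did not overlap, and metformin replicate 2 lay closest to the saline values. It fell by 0.65 ± 0.12 (SE, n = 3 each, limma, adjusted p = 0.0175). The call was lost without metformin replicate 1 (adjusted p = 0.0581), metformin replicate 3 (adjusted p = 0.0519) or saline replicate 1 (adjusted p = 0.0726). Rpl7 itself, the large subunit protein from which the paralogue takes its name, had 9.56, 9.81 and 9.64 in metformin kidneys and 9.30, 9.51 and 9.41 in saline kidneys. The Rpl7 groups did not overlap either, with metformin above saline, and the change of 0.26 ± 0.11 did not pass the test (limma, adjusted p = 0.142). The difference between the changes of Rpl7 and Rpl7l1 was not tested.

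Rpl37a and Rpl11 came next among the members above 0. Rpl37a, a zinc-binding protein of the large subunit, had 11.33, 11.61 and 10.92 in metformin kidneys and 10.77, 10.67 and 10.54 in saline kidneys. All metformin values were above all saline values, and metformin replicate 3 was nearest to saline. The change of 0.63 ± 0.17 had an adjusted p of 0.0507 in limma, and it passed with the replicate number as a block (adjusted p = 0.0322), without metformin replicate 3, after quantile normalization, with a stricter filter on low values and with all clusters tested. Rpl11 binds 5S rRNA together with Rpl5 and, when free of ribosomes, binds the p53 ligase Mdm2. It had 7.29, 7.39 and 7.29 in metformin kidneys and 7.01, 7.07 and 6.96 in saline kidneys. The Rpl11 groups were apart and tight, and the change of 0.31 ± 0.09 missed the threshold (limma, adjusted p = 0.0538). It passed with array weights and with a stricter filter on low values, and it was 0.22 after centring (adjusted p = 0.19) and 0.08 after quantile normalization (adjusted p = 0.524).

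Rpl8 and Rps26 were the standard ribosomal proteins with the largest falls by the mean. Rpl8, a large subunit protein next to the peptidyl transferase centre, had 11.47, 11.998 and 11.50 in metformin kidneys and 12.25, 12.26 and 11.97 in saline kidneys. Metformin replicate 2 was just above saline replicate 3, so the groups overlapped. The change was -0.50 ± 0.17 (limma, adjusted p = 0.0788), and it passed with the replicate block (adjusted p = 0.0434) and without metformin replicate 2. Rps26 lies at the channel where the message leaves the small subunit and is one of the genes mutated in Diamond-Blackfan anaemia. It had 13.54, 14.02 and 13.70 in metformin kidneys and 14.12, 14.19 and 14.01 in saline kidneys. Only metformin replicate 2 reached the saline values, and the change of -0.36 ± 0.14 passed after quantile normalization but not as deposited (limma, adjusted p = 0.119). A further Rps26 cluster on chromosome 8 had a change of -0.31, and one on chromosome 12, below the filter on low values, had -0.04.

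**Figure D2:**
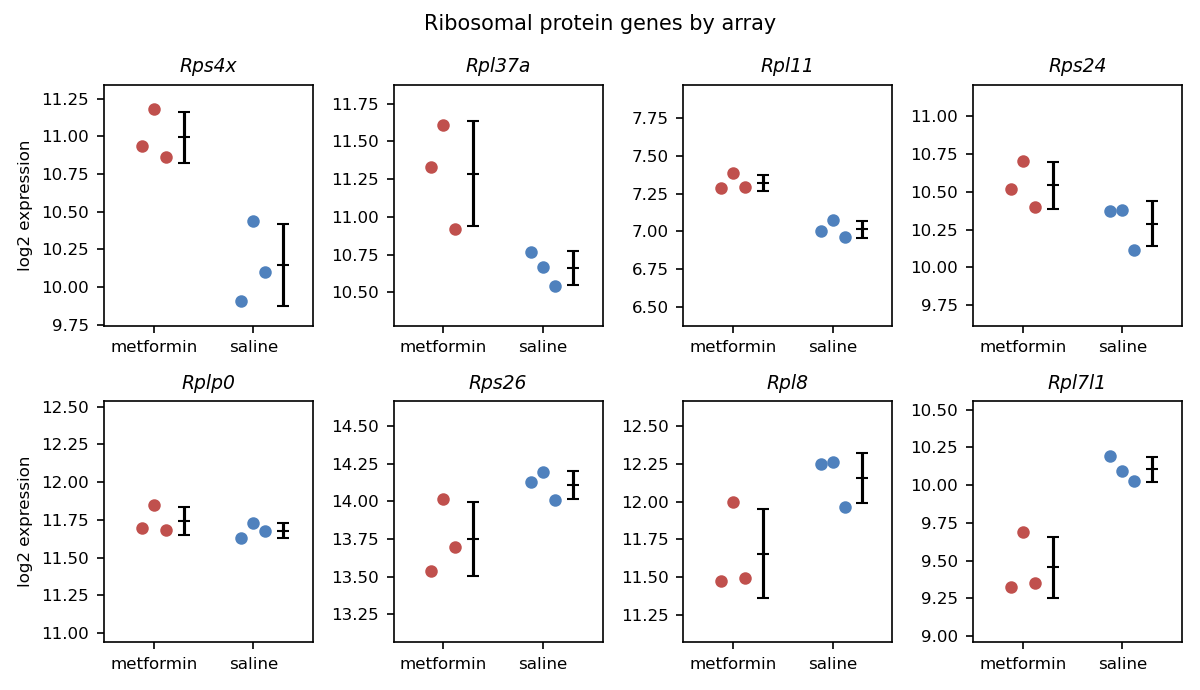
Values of 8 ribosomal protein genes on each array in log2 units, metformin (red) left of saline (blue), with every panel spanning the same height. Points are single mice and the black bars the group mean with its SD (n = 3). Rps4x, Rpl37a, Rpl11 and Rps24 have all metformin points above the saline points, Rplp0 and Rps26 and Rpl8 overlap, and Rpl7l1 has all metformin points below.

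Large and small subunit genes can be set side by side as descriptions. Of 23 large subunit symbols tested, 12 were above 0 with a median change of 0.04, and 1 was called. Their median change was -0.05 after centring and -0.06 after quantile normalization. Of 19 small subunit symbols, 15 were above 0 with a median change of 0.13, and 1 was called. Over all genes tested 52.9% were above 0. The count for the small subunit was 10 of 19 when arrays were centred on their medians and 6 of 19 after quantile normalization, so the direction depended on scaling. Over all members 27 were above 0 as deposited, 18 after centring (median change -0.02) and 13 after quantile normalization (median change -0.07). Quantile normalization moved the median of all genes by -0.12, and set against that median the members were higher by 0.05 as deposited, by 0.05 after centring and by 0.03 after quantile normalization. Without metformin replicate 2 they were 0.02 below it, and with all clusters tested 0.03 below it. The sign was the same in every setting run for 22 members, 12 of them higher and 10 lower.

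**Figure D3:**
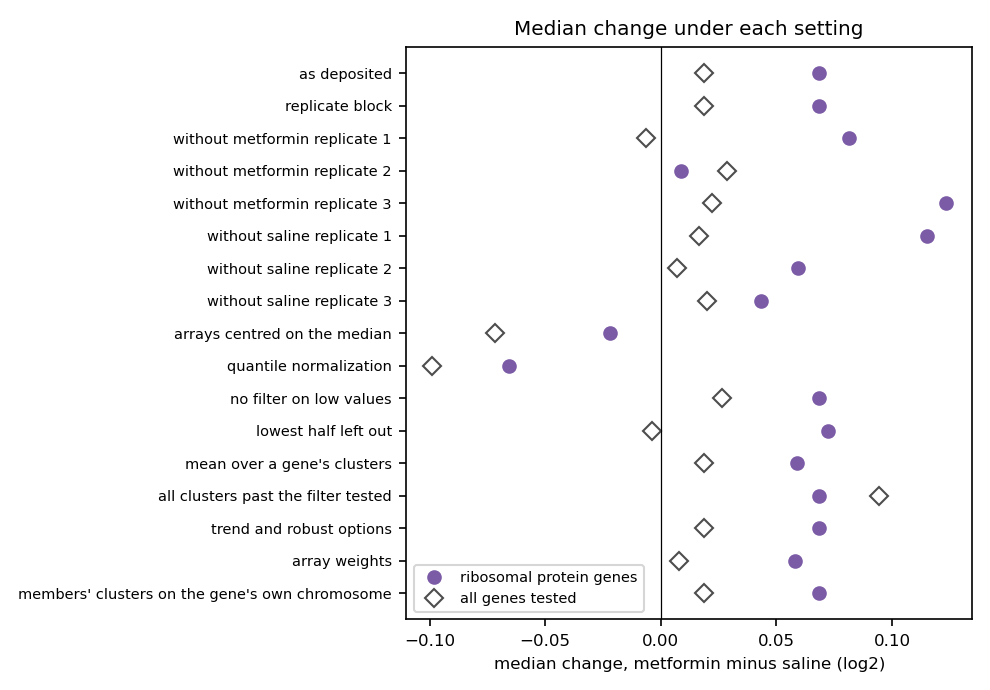
Median change in log2 units, metformin minus saline, of the ribosomal protein genes (filled circles) and of all genes tested (open diamonds) under each setting. The members' median was 0.07 as deposited and was below 0 in the settings that centred or quantile-normalized the arrays, in which the median of all genes moved too.

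On single arrays the group's median deviation (each gene's value minus its own average) was 0.02, 0.13 and -0.04 in metformin kidneys and -0.06, 0.03 and -0.11 in saline kidneys. Metformin replicate 3 was below saline replicate 2, so the groups overlapped. Metformin replicate 2 had the highest value of all, and without it the members' median change was 0.01. Between the groups, 12 members had no overlap of values (28.6%), against 37.3% of all genes. The 8 with metformin higher were Rps4x, Rpl37a, Rpl11, Rps3a2, Rpl7, Rps24, Rps20 and Rps19, and over all genes 17.8% were of this kind. The 4 with metformin lower were Rpl7l1, Rps19bp1, Rpl4 and Rpl6, against 19.4% of all genes. An unadjusted p under 0.05 was reached by 9 members, 5 higher and 4 lower, and by 32.1% of all genes.

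The stalk recruits the GTPase factors that drive translation. Rplp0, the base of the stalk and a common reference gene in PCR, had 11.70, 11.85 and 11.68 in metformin kidneys and 11.63, 11.73 and 11.67 in saline kidneys. These groups overlapped, and the change was 0.06 with a 95% interval of -0.15 to 0.28 (limma, adjusted p = 0.682). Its sign turned when arrays were centred on their medians. Rpl12, which sits beside the stalk, had a change of 0.04 (limma, adjusted p = 0.882), taken from a cluster on chromosome 10, not on its own chromosome 2.

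Proteins at the exit tunnel of the large subunit gave 0 calls with limma in 5 tested, and 0 at an unadjusted p under 0.05. The shares over all genes were 15.8% and 32.1%. Rpl4, whose loop reaches into the tunnel, had 16.60, 16.51 and 16.51 in metformin kidneys and 16.90, 16.73 and 16.61 in saline kidneys. The groups lay next to each other without overlap, and the change was -0.21 ± 0.10 (limma, adjusted p = 0.223), and -0.44 after quantile normalization (adjusted p = 0.066). Rpl19, Rpl31, Rpl35 and Rpl39, which surround the opening, had changes of 0.12, 0.08, 0.10 and 0.04. Of the 3 small subunit proteins at the path of the message, Rps14 and Rps28 had changes of 0.05 and 0.16, beside Rps26.

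Mutations in 1 copy of single ribosomal protein genes cause Diamond-Blackfan anaemia, an inherited failure of red cell production. Of 20 such genes 12 were tested and 0 were called, with 2 at an unadjusted p under 0.05, Rpl11 and Rps26. Over all genes 15.8% were called and 32.1% had an unadjusted p under 0.05. The median change of the 12 was 0.13 and 10 were above 0 as deposited. It was 0.04 after centring, and after quantile normalization it was -0.05, with 5 above 0 and 1 called lower, so the direction depended on scaling. Rps24 had 10.52, 10.71 and 10.40 in metformin kidneys and 10.38, 10.38 and 10.12 in saline kidneys. The lowest metformin value stood just above the highest saline values, and the change of 0.25 ± 0.12 did not pass (limma, adjusted p = 0.201). Rps7 had a change of 0.26 ± 0.13 with overlapping groups (limma, adjusted p = 0.22). Rps19, the gene most often mutated in the disease, had 7.12, 7.13 and 7.13 in metformin kidneys and 6.93, 7.01 and 7.05 in saline kidneys. Its metformin values were nearly equal and all above saline, and the change was 0.13 ± 0.09 (limma, adjusted p = 0.348), which turned to -0.10 after quantile normalization.

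Paralogues and like-named genes that the symbol rule takes differ from the standard proteins in where they are made. Rpl39l and Rpl10l are known from the testis, and Rpl3l from heart and skeletal muscle. Rpl39l and Rpl3l were below the filter on low values and were not tested. Rpl39l had 3.97, 3.80 and 3.73 in metformin kidneys and 3.58, 3.48 and 3.37 in saline kidneys, and Rpl3l had 3.89, 3.80 and 3.90 in metformin kidneys and 3.79, 3.66 and 3.81 in saline kidneys. The Rpl39l groups did not overlap, at values where the array gives little information, and the Rpl3l groups overlapped slightly. Rpl10l was close to the filter, with 3.94, 3.81 and 4.05 in metformin kidneys and 3.89, 3.97 and 4.71 in saline kidneys. Its change of -0.26 ± 0.21 rested on saline replicate 3 and was 0.00 without it.

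Of the paralogues expressed more widely, Rpl22l1, a relative of Rpl22, had a change of 0.13 ± 0.10 (limma, adjusted p = 0.44), and Rpl22 itself had -0.11 ± 0.10 (limma, adjusted p = 0.493). Rps27l, a relative of Rps27 induced by p53, had a change of 0.05 ± 0.21 (limma, adjusted p = 0.894). Rps19bp1, which binds Rps19 and the deacetylase SIRT1, had 8.31, 8.25 and 7.88 in metformin kidneys and 8.55, 8.48 and 8.45 in saline kidneys. All metformin values were below saline, and the change of -0.35 ± 0.13 passed only after quantile normalization (limma, adjusted p = 0.112 as deposited). Without the 10 tested paralogues, like-named genes and pseudogenes, 22 of 32 members were above 0 with a median change of 0.08, and 1 was called. After centring 15 of the 32 were above 0 (median change -0.01) and after quantile normalization 11 (median change -0.07).

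The Rps3a family had 3 symbols. Rps3a1, the protein-coding gene, had 14.42, 14.64 and 14.47 in metformin kidneys and 14.35, 14.43 and 14.33 in saline kidneys. The lowest metformin value was just under the highest saline value, with a change of 0.14 ± 0.10. Rps3a2 and Rps3a3 had changes of 0.27 and 0.21, and how far the probes tell these copies apart was not tested. Rpl41, the smallest ribosomal protein, had a change of -0.24 ± 0.13 in the cluster on chromosome 14 (limma, adjusted p = 0.243) and -0.07 in the lower one on its own chromosome 10. After quantile normalization the cluster on chromosome 14 passed the test, with a change of -0.53 (adjusted p = 0.0155). Rpl27, Rpl35 and Rpl7a had changes of 0.13, 0.10 and 0.11 in the clusters used and 0.09, 0.10 and 0.14 in the clusters on their own chromosomes.

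The remaining members had changes of at most 0.23 in size. Among large subunit symbols Rpl6 had a change of -0.12, Rpl6l -0.06, Rpl38 -0.03, Rpl10a -0.01 and Rpl32l -0.23. Among small subunit symbols Rps20 had a change of 0.17, Rps18 0.16, Rps9 0.09, Rps23rg1, a retrogene of Rps23, 0.07, Rps10 0.03, Rps15 -0.06 and Rps29 -0.14. None of these 12 passed the test.

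Core ribosomal proteins with other kinds of symbol did not pass the test either. Rpsa, the small subunit protein also known as the laminin receptor, had 10.66, 11.00 and 10.64 in metformin kidneys and 10.22, 10.71 and 10.43 in saline kidneys. The groups overlapped, with a change of 0.31 ± 0.16 (limma, adjusted p = 0.221). Fau, a ubiquitin-like protein fused to the small subunit protein S30, had a change of -0.10 ± 0.17 (limma, adjusted p = 0.731).

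Other messages with a TOP tract, most of which encode translation factors, gave 0 calls among 13 tested, with 1 at an unadjusted p under 0.05. The shares over all genes were 15.8% and 32.1%. Their median change was 0.03 and 8 were above 0 as deposited, and after centring the median change was -0.06 and 5 were above 0. After quantile normalization the median change was 0.003, 7 were above 0 and 1 was called lower. Eef1a1, the elongation factor that brings aminoacyl-tRNA, had a change of -0.04, and Eef2, which moves the ribosome along, had 0.16. Eif4b, a helper of the cap-binding helicase, had 12.95, 13.04 and 13.06 in metformin kidneys and 13.41, 13.35 and 13.19 in saline kidneys. These groups did not overlap, with metformin lower, and the change was -0.30 ± 0.10 (limma, adjusted p = 0.0777). Npm1, Eif3f and Tpt1 had changes of 0.30 ± 0.16, 0.20 ± 0.12 and 0.17 ± 0.10. None of these passed (limma, adjusted p = 0.247, 0.309 and 0.304). For Tpt1 every metformin value was above saline, and its change was -0.04 after quantile normalization.

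Among 11 regulators of TOP and cap-dependent translation, 2 were called (18.2%, against 15.8% of all genes). Larp1, which binds the TOP tract, had 12.41, 12.37 and 12.32 in metformin kidneys and 11.61, 11.98 and 11.88 in saline kidneys. The groups were apart, and Larp1 rose by 0.54 ± 0.12 (limma, adjusted p = 0.0245). Pdcd4, an inhibitor of the helicase eIF4A that S6 kinase marks for degradation, had 14.37, 13.97 and 14.27 in metformin kidneys and 15.24, 14.79 and 14.81 in saline kidneys. All metformin values were below saline, and Pdcd4 fell by 0.74 ± 0.16 (limma, adjusted p = 0.025). Both calls were lost without metformin replicate 1, 2 or 3 or saline replicate 1. Mtor, the kinase, had a change of -0.32 ± 0.16 and Eif4e, the cap-binding protein, of -0.28 ± 0.09, and neither passed as deposited (limma, adjusted p = 0.23 and 0.0873). Eif4e passed after centring, with a change of -0.37 (limma, adjusted p = 0.0353), and not after quantile normalization. Larp4 had a change of -0.34 ± 0.12 with all metformin values below saline (limma, adjusted p = 0.0964). It passed with the replicate block (limma, adjusted p = 0.0456).

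Factors that build ribosomes gave 1 call among 32 tested, a higher one (3.12%, against 15.8% of all genes). With the replicate block 6 were called, 2 higher and 4 lower, and after quantile normalization 6, all lower. Over all genes 19.8% were called with the replicate block and 21.7% after quantile normalization. Fbl, the nucleolar methyltransferase fibrillarin, had 9.60, 9.63 and 9.37 in metformin kidneys and 9.19, 9.15 and 9.02 in saline kidneys. The metformin values were all higher, and Fbl rose by 0.41 ± 0.11 (limma, adjusted p = 0.0417). The call was lost under both rescalings and without any 1 array except metformin replicate 3. The list's median change was -0.06, and -0.25 after quantile normalization, with 13 of 32 above 0 as deposited. Dkc1, the pseudouridine synthase dyskerin, and Pes1, needed to mature the large subunit, had changes of -0.45 ± 0.14 and -0.35 ± 0.11. Both missed the threshold as deposited (limma, adjusted p = 0.0604 and 0.0631) and passed with the replicate block. Both also passed as lower after centring (limma, adjusted p = 0.0325 for Dkc1 and 0.0452 for Pes1) and after quantile normalization (0.028 and 0.0309). Rrp1b was higher by 0.35 ± 0.11 with the groups apart, and it missed the threshold (limma, adjusted p = 0.0682). Its change was 0.26 after centring and 0.12 after quantile normalization (limma, adjusted p = 0.141 and 0.374).

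Mitochondrial ribosomal proteins, which build the separate ribosome inside mitochondria, provide a comparison by name and function. Of 75 tested, 14 were called lower and 0 higher, with 29 at an unadjusted p under 0.05, all of them lower. The share called lower was 9.08% over all genes. The count was 30 after quantile normalization, all lower. It dropped to 3 when saline replicate 1 was left out, to 4 when metformin replicate 1 was, and to 7 when metformin replicate 2 or 3 was. Over all 22086 genes 2006 were called lower as deposited and 3806 after quantile normalization. Those called lower were 490 without saline replicate 1 and 708, 782 and 1074 without metformin replicates 1, 2 and 3. Their median change was -0.22, against 0.07 for the cytosolic group. On single arrays the mitochondrial group's median deviation was -0.17, -0.01 and -0.12 in metformin kidneys and 0.19, 0.04 and 0.08 in saline kidneys, without overlap. The difference between cytosolic and mitochondrial groups was not tested. Ribosomal protein pseudogenes, 191 of them past the filter, had 19 called higher and 12 lower (16.2% called, against 15.8% of all genes) and a median change of -0.01. The split was 4 higher and 19 lower after centring, 17 higher and 30 lower after quantile normalization, and 26 higher and 20 lower with the replicate block. Without saline replicate 1 it was 2 higher and 0 lower, and without any 1 of the other arrays except saline replicate 2 it was 2 to 4 higher and 0 to 6 lower. Over all genes the split was 913 higher and 2713 lower after centring, and 993 and 3806 after quantile normalization. With the replicate block it was 1946 and 2427, and without saline replicate 1 it was 352 and 490. Without any 1 of those other arrays it was 541 to 882 higher and 708 to 1187 lower.

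**Figure D4:**
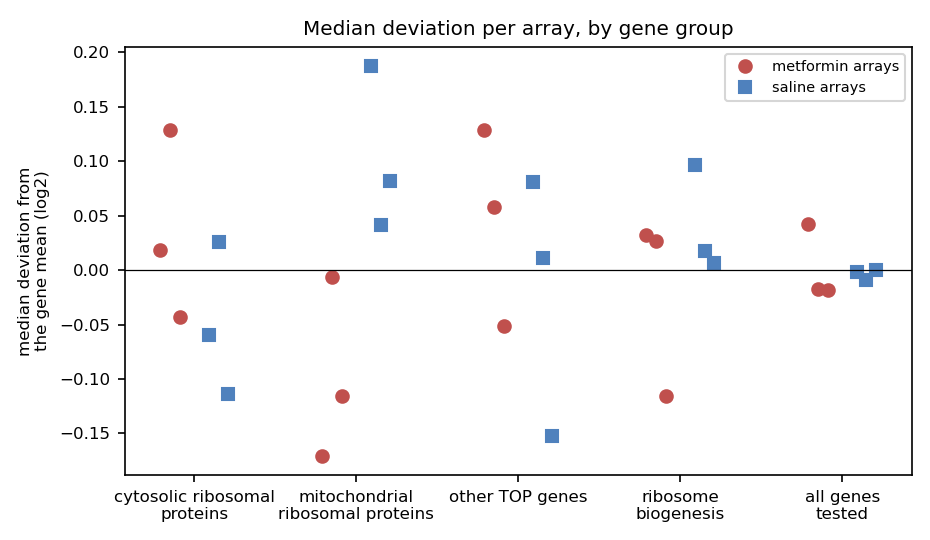
Median deviation of the genes from their own averages, in log2 units, on each of the 6 arrays for 5 groups of genes, with metformin arrays (red circles) left of saline arrays (blue squares). The cytosolic ribosomal proteins overlap between the groups (metformin -0.04 to 0.13, saline -0.11 to 0.03), and the mitochondrial ribosomal proteins do not.

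Markers of kidney cells and of other cells also differed between the groups, and their part in the ribosomal protein values was not tested. Over all genes 6.71% were called higher and 9.08% lower. Of 10 proximal tubule markers 5 were called lower, with a median deviation of -0.90, -0.41 and 0.00 on metformin arrays and 0.36, 0.20 and 0.74 on saline arrays. Of 9 cell cycle genes 7 were called higher, with 0.50, 0.41 and 0.18 on metformin arrays and -0.37, -0.15 and -0.62 on saline arrays. Of 9 macrophage markers 2 were called higher, with overlapping arrays (0.57, 0.36 and 0.12 for metformin, -0.41, 0.22 and -0.84 for saline). Of 8 adipocyte markers tested 1 was called lower, with -0.74, -0.75 and -0.74 on metformin arrays and 0.89, 1.62 and -0.38 on saline arrays. Fibroblast markers had 1 of 7 called higher, and lymphocyte markers 0 of 8, with 2 at an unadjusted p under 0.05.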

How the data were processed

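The authors deposited log2 expression values, 1 per transcript cluster and array, and the submitters' processing notes name RMA and Transcriptome Analysis Console 4.0. They came from biotin-labelled total RNA of 6 kidneys, 3 per group. The sources used here do not state the RMA variant. How far its summary compresses changes of dim clusters was not tested.

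The table holds 65956 clusters. The platform annotation gives 1 symbol for 30604, several for 2146 and none for 33206. Symbols were updated through Entrez numbers in RefSeq (GRCm38.p6), with 22818 matched and 827 changed. Clusters in the lowest 33.3% by mean were left out and the highest-mean cluster per gene kept, which gave 22086 genes. These were fitted with limma 3.58.1 in R 4.3.3 (lmFit, eBayes), metformin minus saline, two-sided, without covariates, with Benjamini-Hochberg adjustment over all 22086 and a threshold of 0.05. The fit was tested on simulated data. No set test was run. Lists are described by counts and medians.

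The members and lists were chosen with earlier results of these data known. Genes named are the called members, the 5 largest rises and falls, paralogues, ribosomal proteins outside the rule, Rplp0, Rpl11, Pkd1, and from each translation list the called genes and up to 4 with the smallest p. Other members are named to account for all 44, and Eef1a1, Eef2, Mtor, Umod and Nphs1 were chosen after their values were seen. Same-numbered replicates deviated together, with correlations across genes of 0.118, 0.145 and 0.541. These passed a preset limit of 0.1 for a pairing, although metformin 1 with saline 2 reached 0.299. The main fit did not use the replicate number, and the block on it was run only as an alternative. The labels do not say what a number marks. Alternatives were the replicate block, leaving out each array, centring, quantile normalization, a stricter filter on low values (the lowest 50% of clusters left out) and none, cluster choices and fit options.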

Additional observations from a re-analysis of the deposited data

How the results depend on the processing

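Over 16 other settings no named change reversed as a called value. Of 911 recomputed changes of 57 genes, 863 stayed on the same side of the threshold, 25 lost a call and 23 gained one, and 20 of 42 members had the other sign in at least 1 setting. The count of members called was 4 with the replicate block (2 higher, 2 lower), 6 after quantile normalization (2 higher, 4 lower) and 4 with the stricter filter on low values (3 higher). In these settings 19.8%, 21.7% and 21.4% of all genes were called. With all clusters tested and with array weights 2 were higher, where 17.7% of all clusters and 19.4% of all genes were called. Leaving out 1 array gave 0 to 2 members called (0 to 2 higher, 0 to 2 lower), with 0 without saline replicate 1 and 1 without metformin replicate 1. Of all genes, 3.81% were called without saline replicate 1 and 5.66% without metformin replicate 1. The members' median change was -0.066 after quantile normalization and 0.01 to 0.12 when 1 array was left out. Over all genes the call count was 7774 with all clusters tested, and 842 (without saline replicate 1) to 3965 (without saline replicate 2). It was 1249, 1368 and 1956 without metformin replicates 1, 2 and 3, and 1965 without saline replicate 3. Calls that were higher made up 42.5% as deposited, 25.2% after centring, 20.7% after quantile normalization and 71.4% with all clusters tested. Using clusters on the gene's own chromosome, chosen after seeing the data, left 2 members called. RMA values carry no call of whether a cluster is detected above background, so what dim clusters such as Rpl39l and Rpl10l can show is limited. The cause of these shifts was not tested.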
